A study of Mus musculus with 6 samples.

Results

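The genes described here are 8 presynaptic release genes, Snap25, Stx1a, Vamp2, Syt1, Syp, Syn1, Syn2 and Rab3a. They were chosen by name for their place in the synaptic vesicle and its fusion machinery, out of 51733 gene symbols in the count tables. All 8 were present in the tables, and all 8 were among the 21332 genes whose mean FPKM (counts scaled to exon length and to the total on genes) was above 1 in either group. A nerve terminal stores transmitter in synaptic vesicles and releases it when a vesicle fuses with the plasma membrane. The fusion is driven by SNARE proteins, which pair across the membranes, with Vamp2 on the vesicle and Stx1a and Snap25 on the plasma membrane. Syt1 is the calcium sensor that couples the fusion to the action potential, Syp is an abundant membrane protein of the vesicle, Syn1 and Syn2 tether vesicles into a reserve pool, and Rab3a is the GTPase that marks vesicles for docking. These genes are expressed mainly by neurons, and their mRNAs appear as progenitors leave the cell cycle and differentiate.

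RNA was measured in neural progenitor cells (NPCs), the dividing cells of the embryonic neural tube, sorted as Sox2-positive from the neural tubes of C57BL/6 mouse embryos at E13.5. The wildtype group, called control, has 3 libraries, and the YBX1KO group, called Ybx1-KO, has 3 libraries from embryos homozygous for Ybx1 tm1Ley, a germline null allele of the DNA- and RNA-binding cold shock protein Ybx1, carried by every cell and not by NPCs alone. Both groups share the sort, for which the study kept a Sox2-eGFP reporter (Sox2 tm1Hoch), the strain, the age and embryos of either sex, and nothing in the labels says whether a library came from a single embryo or a pool, so p-values measure the spread between these libraries. The comparison asks how the release genes of these cells differ between the genotypes.

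The libraries held 20841990 to 23883542 counts on genes in control and 4743279 to 13321952 in Ybx1-KO, and 3 counts correspond to 0.126 to 0.632 CPM (counts scaled to a common library total). Ybx1-KO 3 stood apart, with 59.5% of its tallied read pairs outside genes and 39553 genes with a count. Ybx1 itself was at 235, 523 and 301 CPM in the control libraries and at 124, 54.5 and 9.51 CPM in the Ybx1-KO libraries, and the groups did not overlap. The library labelled Ybx1-KO 1 still held 1112 counts on Ybx1, and Ybx1-KO 2 and 3 held 533 and 68. Counts per gene do not show whether such RNA came from an intact or from the null allele. The source of these counts was not tested. Fitted changes that turn or shrink most without Ybx1-KO 1 are also given without it. The 3 genes that were lower without overlap with all libraries were Snap25, Syt1 and Syn2. Without Ybx1-KO 1 their log2 fold changes (Ybx1-KO minus control) were -1.22, -0.93 and -0.73. Leaving out a library keeps such a gap unless the scaling shifts. Their lack of overlap without Ybx1-KO 1, beside 12.7% of all tested genes, is thus no further check. The progenitor genes Sox2 and Nes were detected in every library, at 17.2 to 49.8 and 52.6 to 283 CPM. The neuronal tubulin Tubb3 was also high in all of them, at 274 to 1009 CPM. CPM values of genes here and below carry TMM scaling (trimmed mean of M values), where a factor above 1 lowers the CPM of its library. The factors were 1.02, 0.909 and 0.927 in the control libraries and 1.06, 0.734 and 1.51 in the Ybx1-KO libraries. FPKM values carry no such factor. In bulk RNA of this kind, fewer neurons in the sort and less RNA per neuron cannot be told apart.

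With all 6 libraries, the fitted changes of the release genes were not all of the same sign. Snap25, Syt1 and Syn2 were lower in every Ybx1-KO library than in any control library, whereas Vamp2, Stx1a, Syp, Syn1 and Rab3a overlapped between the groups. Of the 8 genes, 0 passed an adjusted p below 0.05 with a fold change above 1.5 in the quasi-likelihood test of edgeR after Benjamini-Hochberg adjustment, where 0% of all 21332 tested genes passed. At an unadjusted p below 0.05 Snap25 alone, 1 of 8, was lower, beside 4.26% of all tested genes. The 3 genes lower without overlap stand beside 8.16% of tested genes, and 0 of 8 were higher without overlap, beside 4.99% of tested genes. The log2 fold change (log2FC), Ybx1-KO minus control, was negative for 5 genes and positive for 3, Vamp2, Syp and Syn1. Each of these positive values was smaller than its standard error (SE), as was the negative value of Stx1a. The median was -0.42, beside a median of 0.31 over all tested genes and 0.05 over the 13695 protein-coding genes among them. In alternative fits, between 4 and 7 of the 8 were negative, with 4 in DESeq2 and 7 without Ybx1-KO 1. Limma-voom called 0 of the 8 and DESeq2 called 1, Snap25, beside 1.00% of all tested genes.

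**Figure D1:**
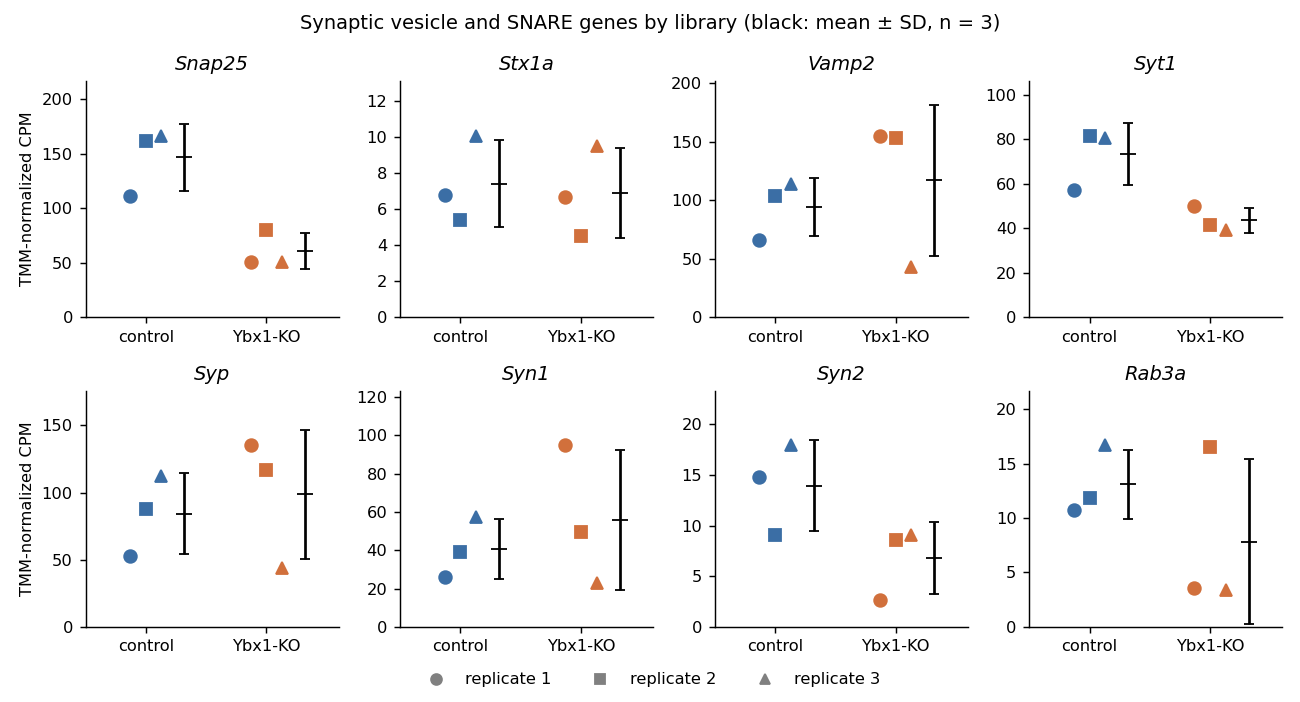
TMM-normalized CPM (y axis, each panel with its own scale from 0) of the 8 release genes in the 3 control libraries (blue) and the 3 Ybx1-KO libraries (orange), with the mean ± SD in black. Replicate numbers only name libraries and pair none across the groups. The orange points lie below all blue points for Snap25, Syt1 and Syn2 and overlap with them for the other genes.

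Among the SNARE proteins, Snap25, the plasma membrane SNARE that contributes a pair of helices to the fusion complex (ENSMUSG00000027273.13, GRCm38 chr2:136713453-136782428, plus strand), differed most. It was at 111, 161 and 167 CPM in the control libraries and at 50.8, 79.7 and 50.9 CPM in the Ybx1-KO libraries. No library of one group reached into the range of the other, and the lowest control was well above the highest Ybx1-KO value. The means were 146 ± 30.6 CPM (SD, n = 3) and 60.5 ± 16.7 CPM (SD, n = 3), a ratio of control to Ybx1-KO of 2.42. The fitted log2FC was -1.28 ± 0.40 (SE), with p = 0.00558 and an adjusted p = 0.384 in edgeR and p = 0.1 in the two-sided exact permutation test, the smallest that 3 against 3 libraries allow. It lay between -1.60 and -1.13 in 17 alternative fits, with an adjusted p between 0.0206, in DESeq2, and 0.783.

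Vamp2, the vesicle SNARE (ENSMUSG00000020894.16, chr11:69088490-69092384, plus strand), was at 66.3, 103 and 114 CPM in control and at 155, 153 and 42.5 CPM in Ybx1-KO. Ybx1-KO 1 and 2 lay above all controls and Ybx1-KO 3 lay below them all. The means of 94.4 ± 24.8 and 117 ± 64.4 CPM (SD, n = 3 each) differed by less than the spread between the libraries (log2FC 0.31 ± 0.48, SE). Leaving out Ybx1-KO 3 gave 0.72 and leaving out Ybx1-KO 1 gave 0.02.

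Stx1a, the syntaxin of the neuronal fusion complex (ENSMUSG00000007207.10, chr5:135023482-135051100, plus strand), was the SNARE gene with the lowest level. It was at 6.80, 5.39 and 10.1 CPM in control and at 6.70, 4.50 and 9.51 CPM in Ybx1-KO, and these ranges largely coincided. Its log2FC of -0.11 ± 0.60 (SE) had no stable sign, since it was 0.21 with scaling by total counts and 0.18 without control 3.

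Syt1, the calcium sensor (ENSMUSG00000035864.14, chr10:108497650-109010982, minus strand), was at 57.1, 81.8 and 80.8 CPM in control and at 49.9, 41.4 and 39.5 CPM in Ybx1-KO. The groups did not overlap, although control 1 and Ybx1-KO 1 were close to each other. The means were 73.2 ± 14.0 and 43.6 ± 5.56 CPM (SD, n = 3 each, exact permutation test p = 0.1). In edgeR the log2FC was -0.75 ± 0.37 (SE) with an adjusted p = 0.448, and the alternatives gave -0.93 to -0.54. With scaling by total counts the groups overlapped.

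Syp, synaptophysin (ENSMUSG00000031144.15, chrX:7638471-7653256, plus strand), was at 52.7, 88.05 and 112 CPM in control and at 135, 117 and 44.1 CPM in Ybx1-KO. As for Vamp2, on TMM scaling Ybx1-KO 1 and 2 were the highest of the 6 libraries and Ybx1-KO 3 the lowest. In FPKM, without TMM factors, control 1 was the lowest for Syp at 10.3, below Ybx1-KO 3 at 12.7. Control 3 at 20.0 FPKM was then above Ybx1-KO 2 at 16.4. The log2FC was 0.23 ± 0.46 (SE), and it turned to -0.11 without Ybx1-KO 1 and to -0.03 without control 1. An antisense gene, Gm14703, shares 2151 bases with the span of Syp on the opposite strand. It held 311, 408 and 449 counts in control and 91, 245 and 24 in Ybx1-KO, and its part in the Syp values was not tested.

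The synapsins, phosphoproteins on the outer face of the vesicle, had fitted changes of opposite sign with all 6 libraries. They were not tested against each other. Syn1 (ENSMUSG00000037217.15, chrX:20860511-20921004, minus strand) was at 26.2, 38.8 and 57.5 CPM in control and at 94.9, 49.4 and 22.8 CPM in Ybx1-KO. On TMM scaling the highest and the lowest values were both in Ybx1-KO. In FPKM, without TMM factors, control 1 was the lowest at 8.07, below Ybx1-KO 3 at 10.4. The log2FC of Syn1 was 0.45 ± 0.48 (SE), and -0.23 without Ybx1-KO 1, the library that held the highest value. Syn2 (ENSMUSG00000009394.13, chr6:115134902-115282006, plus strand) was at 14.8, 9.12 and 18.0 CPM in control and at 2.68, 8.59 and 9.09 CPM in Ybx1-KO. The groups did not overlap, but control 2 and Ybx1-KO 3 all but touched. In edgeR the log2FC of Syn2 was -1.04 ± 0.56 (SE) with an adjusted p = 0.450, and the exact permutation p was 0.1. With scaling by total counts, by DESeq2's size factors or by the upper quartile, the groups overlapped.

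Both synapsin genes carry a gene for an inhibitor of matrix metalloproteinases inside an intron, on the opposite strand, and the strand setting of the counting is not given in the sources used here. Timp1, inside Syn1, held 14 to 17 counts in control and 3 to 16 in Ybx1-KO, far fewer than the 163 to 1149 counts of Syn1. Timp4, inside Syn2, held 148, 66 and 74 counts in control and 6, 10 and 37 in Ybx1-KO. Syn2 itself had 313, 198 and 359 counts in control and 24, 84 and 65 in Ybx1-KO, and the part of Timp4 in its values was not tested. Timp3, which lies inside Syn3, was at 49.7 ± 10.4 CPM in control and 39.4 ± 16.7 CPM in Ybx1-KO (SD, n = 3 each). The groups overlapped for Timp3.

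Rab3a, the vesicle GTPase (ENSMUSG00000031840.12, chr8:70754679-70758677, plus strand), was at 10.8, 11.8 and 16.7 CPM in control and at 3.57, 16.6 and 3.36 CPM in Ybx1-KO. Ybx1-KO 1 and 3 lay below all controls, while Ybx1-KO 2 lay within their range. The log2FC of Rab3a was -0.74 ± 0.61 (SE), and it ran from -1.99 without Ybx1-KO 2 to -0.39 without Ybx1-KO 3, with -0.42 without Ybx1-KO 1.

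Compared per length, in FPKM, the order of levels differed between the genotypes. In control NPCs it ran from Vamp2 (23.3 ± 5.10) over Snap25 (20.3 ± 3.24), Syp (15.2 ± 4.85), Syn1 (11.6 ± 4.12) and Syt1 (8.29 ± 1.15) to Rab3a (5.57 ± 1.20), Stx1a (2.65 ± 0.839) and Syn2 (1.89 ± 0.630 FPKM, SD, n = 3 each). The ranges of neighbours in this order overlapped except between Syt1 and Rab3a and between Rab3a and Stx1a. In Ybx1-KO NPCs Vamp2 was again the highest at 29.8 ± 13.1, followed by Syp at 18.9 ± 7.63, Syn1 at 17.3 ± 11.4 and then Snap25 at 9.27 ± 1.79 FPKM. Below them came Syt1 at 5.70 ± 1.82, Rab3a at 3.14 ± 2.03, Stx1a at 3.09 ± 2.10 and Syn2 at 1.08 ± 0.790 FPKM. There the only neighbours without overlap were Snap25 and Syt1.

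A gene's share of the counts that the 8 genes held together in a library does not depend on how libraries are scaled. Snap25 made up 32.2%, 32.3% and 28.9% of these counts in the control libraries and 10.2%, 16.975% and 23.0% in the Ybx1-KO libraries. Its 95% exact binomial intervals, which cover counting error only, ran from 31.1 to 33.2% in control 1 and from 20.9 to 25.1% in Ybx1-KO 3. For Snap25 the groups stood apart here too. The share of Syp was 15.2%, 17.6% and 19.5% in control against 27.1%, 24.8% and 19.9% in Ybx1-KO, and that of Syn1 was 7.57%, 7.77% and 9.98% against 19.0%, 10.5% and 10.3%. For both of these vesicle proteins the Ybx1-KO libraries were above the controls, by little between the nearest libraries. The mean share of Snap25 was 31.1 ± 1.90% in control and 16.7 ± 6.40% in Ybx1-KO (SD, n = 3 each, exact permutation test p = 0.1, 0.267 after Benjamini-Hochberg adjustment over the 8 shares). The same p and adjusted p held for Syp and Syn1 in the exact permutation test. Syt1, Vamp2, Stx1a, Syn2 and Rab3a overlapped between the groups. The shares of a library sum to 100%, so they are not independent of each other, and this measure was chosen after the CPM values were seen.

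**Figure D2:**
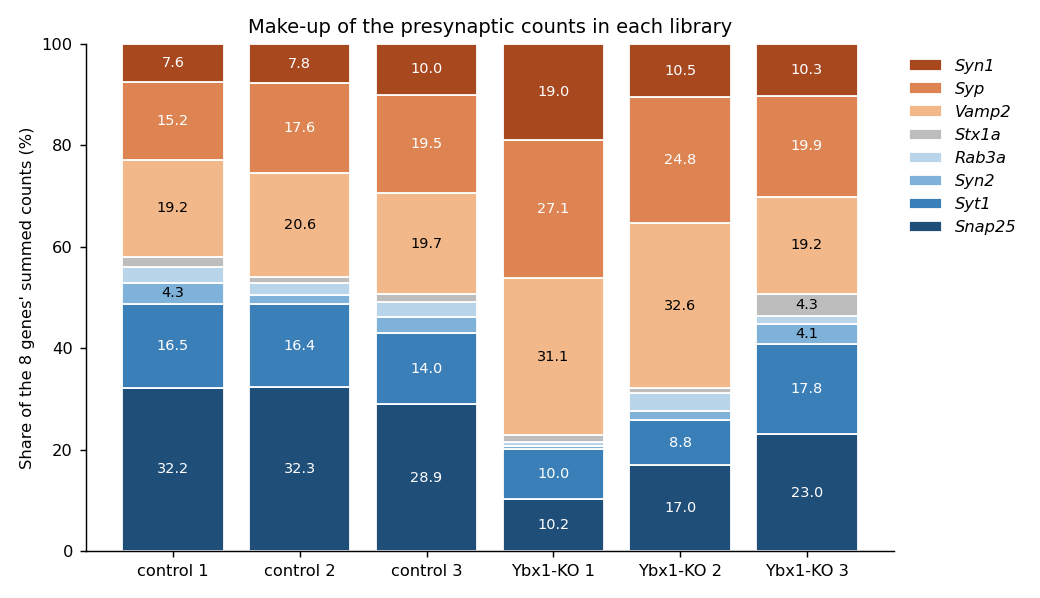
Stacked bars of each gene's share (y axis, percent) of the counts that the 8 release genes held together, for each of the 6 libraries on the x axis. Snap25 (dark blue) takes 28.9 to 32.3% of the bar in control and 10.2 to 23.0% in Ybx1-KO, and Syp and Syn1 (orange and brown) take more in Ybx1-KO than in control.

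Neuron marker levels were set beside those of the release genes, since neurons are their main source. The summed CPM of 20 neuron markers was 5286, 8201 and 6789 in control and 7339, 5999 and 2793 in Ybx1-KO, and that of the 8 release genes was 346, 500 and 576 against 499, 470 and 222 CPM. Ybx1-KO 3 was lowest on both sums. Of the 20 neuron markers 0 were called, 15 had a negative and 5 a positive log2 fold change, and their median was -0.29. Per 1000 counts on the neuron markers, Snap25 held 21.05, 19.7 and 24.5 counts in control and 6.92, 13.3 and 18.2 in Ybx1-KO, again without overlap. Syt1 held 10.8, 9.97 and 11.9 against 6.80, 6.90 and 14.1, with Ybx1-KO 3 above every control. All 8 genes together held 70.4 ± 12.7 counts per 1000 in control and 75.2 ± 6.29 in Ybx1-KO (SD, n = 3 each), a difference within the spread. This scale too was chosen after the CPM values were seen.

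**Figure D3:**
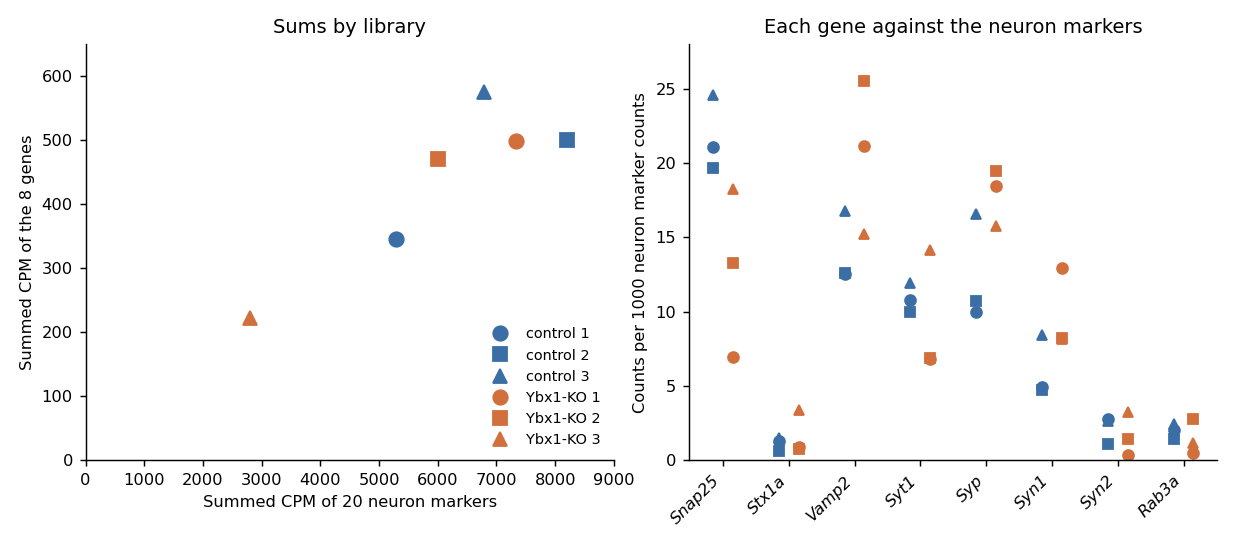
Left, summed CPM of the 8 release genes (y axis) against the summed CPM of 20 neuron markers (x axis), with 1 point for each of the 6 libraries. Right, counts of each gene per 1000 counts on the neuron markers, control in blue and Ybx1-KO in orange. The Ybx1-KO 3 point lies lowest at left, and at right the orange points lie below all blue points for Snap25 and for no other gene.

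Markers of other cells in the gate were given the same look. The summed CPM of 12 progenitor markers was 1662 to 1821 in control and 1309 to 2131 in Ybx1-KO, with a median log2 fold change of 0.37. Of these 12, 0 were called, and 8 had a positive and 4 a negative log2 fold change. At an unadjusted p below 0.05, 4 were higher and 1 was lower, beside 6.96% and 4.26% of all tested genes. Without overlap, 3 were higher and 1 was lower, beside 4.99% and 8.16%. The 9 markers of intermediate progenitors and newborn neurons, the step between progenitor and neuron, summed to 349, 315 and 421 CPM in control and 860, 429 and 265 CPM in Ybx1-KO. On TMM scaling the highest and the lowest sum were both in Ybx1-KO. The lowest was in Ybx1-KO 3, whose TMM factor was 1.51, and its rank depends on that factor. Of these 9, 0 were called, 6 had a positive and 3 a negative log2 fold change, and the median was 1.04. At an unadjusted p below 0.05, 4 were higher and 1 was lower, beside 6.96% of all tested genes higher and 4.26% lower. Without overlap, 2 were higher and 1 was lower, beside 4.99% of all tested genes higher and 8.16% lower. They ran from -2.70 for Eomes to 1.81 for Neurog1, and their part in the release gene values was not tested. The 6 neuroendocrine and sensory neuron markers, from cells that also use these SNAREs, summed to 108 to 264 CPM in control and 90.2 to 221 CPM in Ybx1-KO. The 8 erythroid markers summed to 514 to 1199 and 191 to 1163 CPM, the 7 mesenchyme markers to 133 to 871 and 76.5 to 124 CPM, and the 5 neural crest and Schwann lineage markers to 30.3 to 49.9 and 54.4 to 162 CPM. The mesenchyme sum was lower and the neural crest sum higher in every Ybx1-KO library than in any control. Gene by gene, all 7 mesenchyme markers had a negative log2 fold change, and 0 were called. Of these 7, 5 were lower at an unadjusted p below 0.05, beside 4.26% of all tested genes. Only 1 of them was lower without overlap, beside 8.16%. Of the 5 neural crest markers, 4 had a positive and 1 a negative log2 fold change, and 0 were called. Here 3 were higher at an unadjusted p below 0.05, beside 6.96% of all tested genes. The number higher without overlap was also 3, beside 4.99%. The part of these cells in the release gene values was not tested. The 6 endothelial and the 6 macrophage and microglia markers summed to at most 48.0 and 39.2 CPM in any library.

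The closest family members of the release genes, 17 in number and all tested, had 0 called and a median log2 fold change of -0.34. It was negative for 10 and positive for 7. Without overlap, 4 were lower and 0 higher in Ybx1-KO, beside 8.16% of all tested genes lower and 4.99% higher. Among the relatives of Snap25, Snap23 was at 38.3, 49.1 and 43.6 CPM in control and at 21.3, 35.6 and 34.3 CPM in Ybx1-KO. These groups did not overlap (log2FC -0.52 ± 0.37, SE). Snap29 and Snap47 overlapped between the groups, as did the syntaxins Stx2 and Stx3.

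Vamp1, a vesicle SNARE of spinal cord and brainstem, was at 4.30, 6.04 and 2.15 CPM in control and at 12.7, 4.80 and 16.5 CPM in Ybx1-KO, with a log2FC of 1.44 (p = 0.0374 and adjusted p = 0.444 in edgeR, exact permutation p = 0.2). Ybx1-KO 2 lay within the controls for Vamp1. Rab3c, a relative of Rab3a, was at 204, 239 and 140 CPM in control and at 118, 114 and 48.3 CPM in Ybx1-KO, without overlap. Its log2FC was -1.06 (p = 0.0308 and adjusted p = 0.444 in edgeR, exact permutation p = 0.1). Syt4 and Sypl were also lower without overlap, each with a log2FC of -0.64. Vamp3, Syt2, Syt11, Synpr, Syn3, Rab3b and Rab3d overlapped, with log2 fold changes from -0.92 for Rab3d to 1.20 for Syt2.

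The wider release pathway was followed in a list of 84 genes, made of these 17 relatives and of the regulators, scaffolds and recycling proteins named next. Of the 81 tested, edgeR and limma-voom called 0 and DESeq2 called 1, where DESeq2 called 1.00% of all tested genes. At an unadjusted p below 0.05, 3 were higher and 6 were lower in Ybx1-KO, beside 6.96% of all tested genes higher and 4.26% lower. Without overlap, 3 were higher and 14 were lower, beside 4.99% of all tested genes higher and 8.16% lower. The log2 fold change was negative for 54 and positive for 27, with a median of -0.27 and a range from -1.75 for Syt16 to 2.70 for Slc18a3, the vesicular acetylcholine transporter.

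The 13 SNARE regulators, which fold, clamp or take apart the fusion complex, had 12 negative and 1 positive log2 fold change, with a median of -0.27 and 0 at an unadjusted p below 0.05. Of these, Dnajc5, the chaperone of Snap25, was at 140 ± 34.6 CPM in control and 121 ± 38.0 CPM in Ybx1-KO (SD, n = 3 each), and the groups overlapped. The 12 tested synaptotagmins and related C2 domain proteins split evenly, with 6 negative and 6 positive and a median of 0.05. Syt5 was at 26.9 ± 18.9 and 20.6 ± 3.58 CPM and Syt13 at 27.2 ± 9.36 and 34.3 ± 20.997 CPM, both with overlap.

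The 12 genes of the vesicle membrane and of transmitter loading had 8 negative and 4 positive log2 fold changes and a median of -0.10. Scamp5, a membrane protein of the vesicle, was at 59.95 ± 12.97 CPM in control and 68.4 ± 60.9 CPM in Ybx1-KO, where Ybx1-KO 1 alone reached 139 CPM. Slc17a6, the vesicular glutamate transporter of early spinal neurons, was at 114 ± 27.7 and 71.0 ± 33.9 CPM (SD, n = 3 each), with overlap.

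The 17 tested genes of the active zone, the release site under the vesicle, and of Rab3 effectors had 10 negative and 7 positive log2 fold changes and a median of -0.38. Madd, which loads Rab3 with GTP, was at 56.0, 83.3 and 72.0 CPM in control and at 44.2, 52.1 and 44.5 CPM in Ybx1-KO, without overlap. Bsn, the scaffold bassoon, was at 84.2 ± 22.0 and 125 ± 63.5 CPM, with overlap. Ppfia2, a liprin scaffold, was the gene that DESeq2 called, and was named after its values were seen. It was at 89.9, 62.3 and 50.5 CPM in control and at 26.3, 16.0 and 24.5 CPM in Ybx1-KO, without overlap, and its log2FC was -1.60 ± 0.39 (SE), with an adjusted p = 0.262 in edgeR.

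The 10 tested genes of vesicle endocytosis, which brings vesicle membrane back after fusion, had 8 negative and 2 positive log2 fold changes and a median of -0.45. Clta, the clathrin light chain with the highest FPKM of the whole list, was at 157 ± 64.3 CPM in control and 103 ± 40.9 CPM in Ybx1-KO. Picalm, a clathrin assembly protein, was at 166 ± 35.1 and 146 ± 53.9 CPM (SD, n = 3 each). The groups overlapped for both.

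Promoter sequence was looked up because Ybx1 is known for binding the Y box, an inverted CCAAT element, and because many presynaptic genes carry the RE1 element that the repressor Rest reads. RefSeq promoter windows on GRCm38.p6, each with 250 bases before and 50 bases after a transcription start, matched 6 of the 8 genes with 9 windows. Snap25 and Vamp2 were not matched. Searched on both strands, the Y box letters CTGATTGG were in 4.10% of all 32851 windows, CCAAT, which overlaps them, in 37.4%, and TTCAGCACC, the left part of RE1, in 0.371%. A match is a run of letters, not a site shown to be bound. The Syt1 window held the Y box letters 77 bases before the start and a further CCAAT at 40 bases. The Syn1 window held the RE1 letters 232 bases before the start. The Rab3a window held CCAAT, once on each strand, 220 and 156 bases before the start. A second Syn2 start had the Y box letters just after it, and the Stx1a, Syp and main Syn2 windows held none of the 3 motifs. The stretches upstream of the annotated gene are shown for the 3 genes with a match there, with matches in capitals, at chr10:109010983-109011225 on the minus strand for Syt1, chrX:20921005-20921168 on the minus strand for Syn1 and chr8:70754453-70754678 on the plus strand for Rab3a.
Syt1: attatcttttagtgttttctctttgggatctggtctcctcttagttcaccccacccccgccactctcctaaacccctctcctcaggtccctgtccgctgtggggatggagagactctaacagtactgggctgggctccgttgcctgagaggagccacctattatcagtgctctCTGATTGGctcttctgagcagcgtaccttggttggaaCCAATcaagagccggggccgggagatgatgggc
Syn1: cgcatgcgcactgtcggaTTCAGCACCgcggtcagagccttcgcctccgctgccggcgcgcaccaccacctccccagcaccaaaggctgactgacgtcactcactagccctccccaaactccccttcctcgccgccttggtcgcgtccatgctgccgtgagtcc
Rab3a: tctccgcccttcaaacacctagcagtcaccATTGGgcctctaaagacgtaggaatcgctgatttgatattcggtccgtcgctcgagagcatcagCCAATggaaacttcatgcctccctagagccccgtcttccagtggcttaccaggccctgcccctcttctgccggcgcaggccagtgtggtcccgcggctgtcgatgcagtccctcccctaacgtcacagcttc
Of these, Syt1 was lower without overlap, and Syn1 and Rab3a overlapped between the groups, as described above. Rest was at 25.5, 35.8 and 15.1 CPM in control and at 15.3, 31.1 and 27.8 CPM in Ybx1-KO, with a log2FC of -0.04 ± 0.43 (SE). The Rest values overlapped almost fully.

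The genes whose pattern over the 6 libraries was closest to the mean centred log2 profile of the 8 release genes were sought among 9122 protein-coding genes with a mean CPM of at least 10. They were BC005624, with a root mean square difference of 0.0585 on the log2 scale, Rcan1 at 0.0771, Apex1 at 0.0808, Spns2 at 0.0813 and Surf2 at 0.0909. Apex1, a DNA repair enzyme, was at 85.7, 101 and 149 CPM in control and at 85.8, 98.2 and 66.7 CPM in Ybx1-KO, with the lowest value in Ybx1-KO 3. The 8 release genes themselves lay further from this mean profile, from 0.280 for Syt1 to 0.732 for Syn2. The likeness is thus to the mean and not to any single release gene. It was taken over 6 libraries only and is a description of their order.

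Long transcripts tended to have lower fold changes in these libraries, with a Spearman rho of -0.43 between exon length and log2 fold change over the tested genes, which are not independent replicates. The median exon length was 4510 bases for the release genes and 2691 bases for all tested genes. With that trend removed, the log2 fold change was -1.16 for Snap25 and the median of the 8 genes was -0.32. The spread of each gene over the alternatives is shown in the plot of fitted changes by setting.

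**Figure D4:**
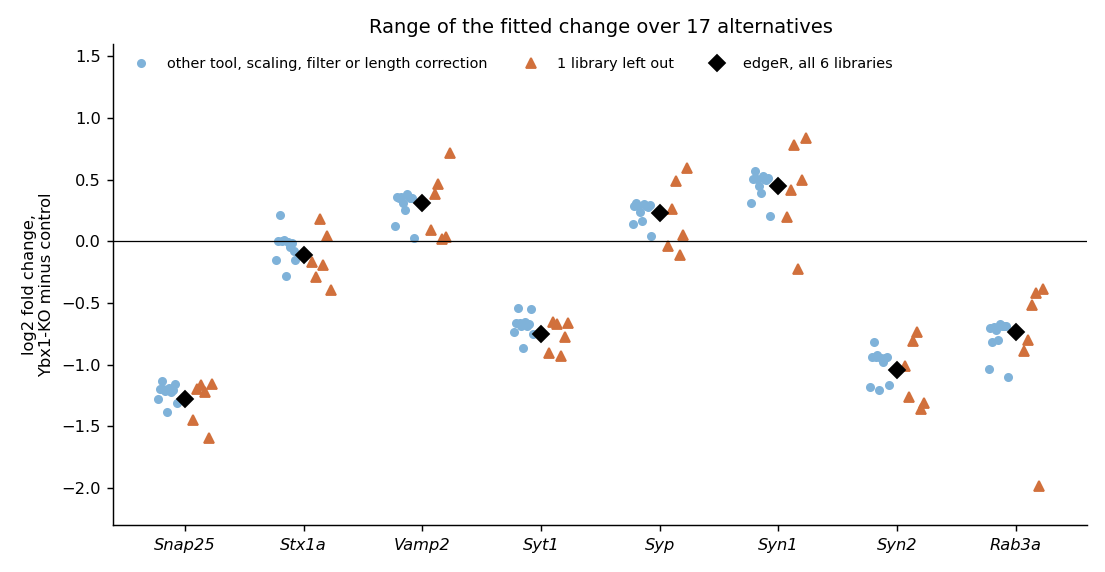
Fitted log2 fold change, Ybx1-KO minus control (y axis), of each release gene (x axis) in edgeR with all 6 libraries (black), with another tool, scaling, filter or length correction (blue), and with 1 library left out (orange). Snap25, Syt1, Syn2 and Rab3a stay below 0 and Vamp2 stays above 0 in all 17 alternatives, while Stx1a, Syp and Syn1 fall on both sides of 0.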

How the data were processed

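RNA of 3 control and 3 Ybx1-KO samples of sorted NPCs was sequenced as stranded total RNA libraries. The authors counted read pairs on genes with HTSeq 0.6.1p1, per the labels, and deposited raw counts per gene symbol, 1 table per library, with no normalization. The submitters' processing notes name mm10 and GRCm38.p5. The aligner and the strand setting of the counting are not given in the sources used here. The rows of tallies for pairs outside genes, ambiguous or not aligned stayed out of library sizes.

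Exon lengths and coordinates came from GENCODE M21 on GRCm38, where 47624 symbols matched directly, 364 by an older symbol and 3745 did not. Genes whose mean FPKM exceeded 1 in control or Ybx1-KO were tested with edgeR 4.0.16 (quasi-likelihood test, TMM, Benjamini-Hochberg adjustment, adjusted p below 0.05 and fold change above 1.5) in R 4.3.3. The study's limma-voom (limma 3.58.1) and DESeq2 1.42.0 were alternatives, as were 3 scalings, 3 filters, protein-coding genes alone, an exon length correction, limma-voom with a correlation within the first title number, and leaving out each library. Adjusted p values cover all tested genes. The code was tested on simulated data. Single genes were also compared by a two-sided exact permutation test. The plots were made in Python 3.11.15 with matplotlib 3.10.9.

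Counts of any pair of libraries differed beyond sampling noise (chi-square divided by its degrees of freedom, 51.1 or more). Reads carry no molecular identifiers, so intervals and floors cover counting error only. The members and lists were chosen with earlier results of these data known. Named are the 8 genes, Ybx1, their relatives, for each part of the list the 2 tested genes with the highest mean FPKM, listed genes that were called, Timp1, Timp3, Timp4, Rest and the 5 genes of most similar profile. A few genes that meet this rule are not reported here.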

Additional observations from a re-analysis of the deposited data

How the results depend on the processing

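Of 136 alternative fits of the 8 genes, 127 kept the direction of edgeR's fit. Those that turned were Stx1a, at 0.0042 in DESeq2, 0.21 with total count scaling, 0.0058 with DESeq2 size factors, 0.0093 with upper quartile scaling, 0.18 without control 3 and 0.04 without Ybx1-KO 2, Syp, at -0.03 without control 1 and -0.11 without Ybx1-KO 1, and Syn1, at -0.23 without Ybx1-KO 1. Over the fits without a library, Stx1a ran from -0.39 to 0.18, Syp from -0.11 to 0.59 and Syn1 from -0.23 to 0.84. DESeq2 called 1 of the 8 genes (Snap25, adjusted p = 0.0206), 1 gene of the list (Ppfia2) and 214 of all genes, 118 higher and 96 lower, where edgeR called 0. Without a filter on low counts 193 of all genes were called. Leaving out a library gave 0 to 725 calls over all genes (73 without control 2, 696 without Ybx1-KO 1, 725 without Ybx1-KO 2), 0 calls among the 8 genes and 0 to 4 on the list (Ppfia2, Sh3gl2, Slc18a3 and Syt16 without Ybx1-KO 1, Rims2 without Ybx1-KO 2). On the genes tested in all 6 libraries, an alternative chosen after seeing the data, the calls were 0 to 420 over all genes (71 without control 2, 28 without Ybx1-KO 1, 420 without Ybx1-KO 2, 44 without Ybx1-KO 3) and 0 to 1 on the list, and the turned values were 0.18 and 0.12 for Stx1a without control 3 and Ybx1-KO 2, -0.031 and -0.10 for Syp without control 1 and Ybx1-KO 1, and -0.21 for Syn1 without Ybx1-KO 1. Total count scaling left 1 gene lower without overlap, Snap25 (beside 5.26% of all tested genes), where 3 were lower with TMM (8.16%), and 4 were without Ybx1-KO 2, with Rab3a added (15.5%). By total counts, as in FPKM, Syt1 was at 7.13 in Ybx1-KO 3 against 6.96 in control 1. Syn2 was at 1.95 FPKM in Ybx1-KO 3 against 1.18 in control 2. The TMM factor of Ybx1-KO 3 was 1.51, so the separation of Syt1 and Syn2 depends on the scaling of this library. No further cause was tested. Against TMM with all libraries, the median of all tested genes moved by 0.20 with total count scaling, 0.39 without a filter, -0.23 with a filter on CPM or filterByExpr, -0.18 with protein-coding genes alone, -0.16 with limma-voom, -0.15 with its correlation within the title number, 0.17 without Ybx1-KO 2 and -0.30 without Ybx1-KO 3.

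No paired analysis was possible because the groups share no replicate number in the labels. The title numbers join libraries within a group only. With a coefficient of biological variation of 0.80 over all genes and 3 libraries a group, a change that misses the threshold is not shown to be absent.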
